A study of Mus musculus with 8 samples.

Results

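Guidance genes encode the ephrins and their Eph receptors, the semaphorins with their plexin and neuropilin receptors, the Slits with their Robo receptors, and the netrins. They were taken by gene symbol, family by family, from the 49315 genes listed in each library, and 63 matched. RNA was sequenced from immortalized mouse embryonic fibroblasts (MEFs), a line of connective tissue cells that grows without limit. The 4 Opa1-/- libraries lack, per the labels, OPA1, a dynamin-like GTPase that fuses mitochondrial inner membranes and shapes cristae. The 4 Opa1-/- + OPA1 libraries came from the same knockout background with OPA1 put back, so both groups carry the Opa1-/- alleles and no library of unmodified MEFs entered the comparison. Which OPA1 sequence was added, how, and whether each group is 1 clone are not given in the sources used here. The cells had no treatment. The labels do not say that libraries came from separate cultures, and a p-value here reflects no more than the variation among the 8 libraries, part of which may be technical.

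Guidance molecules were first described as cues that steer growing axons, and most of them also act in fibroblasts, vessels and epithelia, where they set cell contact, spreading and migration. Ephrins sit on one cell and Eph receptor tyrosine kinases on its neighbour, and contact sends signals into both cells. Class 3 semaphorins are secreted and bind neuropilins, which pass the signal through plexins, while the other vertebrate classes are membrane-bound and mostly bind plexins directly. Plexins act on small GTPases of the Ras and Rap families. Slits are secreted ligands of Robo receptors, and netrins are laminin-related secreted proteins whose classical receptors are DCC and the UNC5 family.

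The promoters of the members with the largest differences, 2 in each direction, are shown as the sequence that precedes the members on which the results turn. Each is the plus strand of RefSeq's GRCm38.p6 assembly and ends just before an annotated start of transcription. Sema6d (chr2:124089719-124089968) and Robo1 (chr16:72662899-72663148) were the members most raised in Opa1-/- libraries, and Efnb1 (chrX:99135811-99136060) and Nrp2 (chr1:62703067-62703284) those most lowered. The Nrp2 window holds 218 bases, and its last base lies 33 bases before the RefSeq start because an exon of the GENCODE annotation begins there. The Robo1 window lies inside the longer GENCODE gene, so it belongs to an internal start. Capitals mark the motifs found, which were the E-box CACGTG and the GC box GGGCGG in Sema6d, the CCAAT box read on the reverse strand in Efnb1, and the GC box on either strand, with 4 matches of which 1 pair overlaps, in Nrp2.
Sema6d: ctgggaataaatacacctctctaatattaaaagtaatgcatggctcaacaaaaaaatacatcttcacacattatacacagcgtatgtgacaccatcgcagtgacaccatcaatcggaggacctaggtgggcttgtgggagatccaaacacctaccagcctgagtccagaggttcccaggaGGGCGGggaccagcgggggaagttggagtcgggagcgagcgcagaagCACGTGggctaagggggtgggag
Robo1: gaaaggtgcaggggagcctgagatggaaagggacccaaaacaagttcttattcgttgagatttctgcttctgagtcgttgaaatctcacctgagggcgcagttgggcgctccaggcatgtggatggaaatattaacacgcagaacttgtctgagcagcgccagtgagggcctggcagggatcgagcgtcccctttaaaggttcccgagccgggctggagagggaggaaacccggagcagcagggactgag
Efnb1: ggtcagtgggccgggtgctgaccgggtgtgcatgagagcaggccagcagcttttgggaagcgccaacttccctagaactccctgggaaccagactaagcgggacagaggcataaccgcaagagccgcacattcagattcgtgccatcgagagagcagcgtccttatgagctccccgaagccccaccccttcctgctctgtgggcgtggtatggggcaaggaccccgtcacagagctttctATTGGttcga
Nrp2: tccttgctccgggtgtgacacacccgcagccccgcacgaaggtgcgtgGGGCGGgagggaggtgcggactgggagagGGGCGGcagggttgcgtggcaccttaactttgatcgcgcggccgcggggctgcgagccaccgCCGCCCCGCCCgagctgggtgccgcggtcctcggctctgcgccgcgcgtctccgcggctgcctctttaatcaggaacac
The Nrp2 window had 28 CpG dinucleotides and 72.5% G or C, against 9 CpG and 52.4% in Sema6d, 11 CpG and 56.0% in Robo1, and 13 CpG and 60.0% in Efnb1.

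Levels are given as scaled TPM (transcripts-per-million), which are per length of all annotated exons of a gene. Levels of different genes can be set side by side only roughly, as the transcripts made may be shorter. The libraries held between 52.9 M and 57.8 M reads (M, 1000000 reads), recovered from the steps of the TPM values. Differences are log2(scaled TPM + 1) in Opa1-/- minus Opa1-/- + OPA1 libraries, a scale that understates the change of low genes, and were tested with limma-trend, a linear model per gene that shares information on the spread across genes, at adjusted p below 0.05 (Benjamini-Hochberg, all 14272 genes that passed the filter). Of the 63 members, 41 reached 1 TPM in at least 4 libraries and were tested, and 22 did not. Of the 41 tested, 38 were at 1 TPM or more in all 8 libraries. Efna3, Sema3b and Sema6d each reached 1 TPM, before scaling, in all 4 Opa1-/- libraries and in 3 Opa1-/- + OPA1 libraries. Their Opa1-/- libraries alone met the filter.

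The fibroblasts carried a wide set of guidance genes, with 23 members at a mean of 10 TPM or more over the 8 libraries and 9 below 0.1 TPM. Plexin-B2, a receptor of class 4 semaphorins, and EPHA2, a receptor of ephrin-A1, had the highest levels among the members. All 5 ephrin-A genes, all 3 ephrin-B genes and both neuropilins were tested, as were 13 of 20 semaphorins, 7 of 9 plexins and 7 of 14 Eph receptors. Slits, Robos and netrins were sparse, with Slit2, Robo1, Ntn1 and Ntn4 tested and the other members of those families below the filter. Sema5b was listed at 0 in every library.

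**Figure D1:**
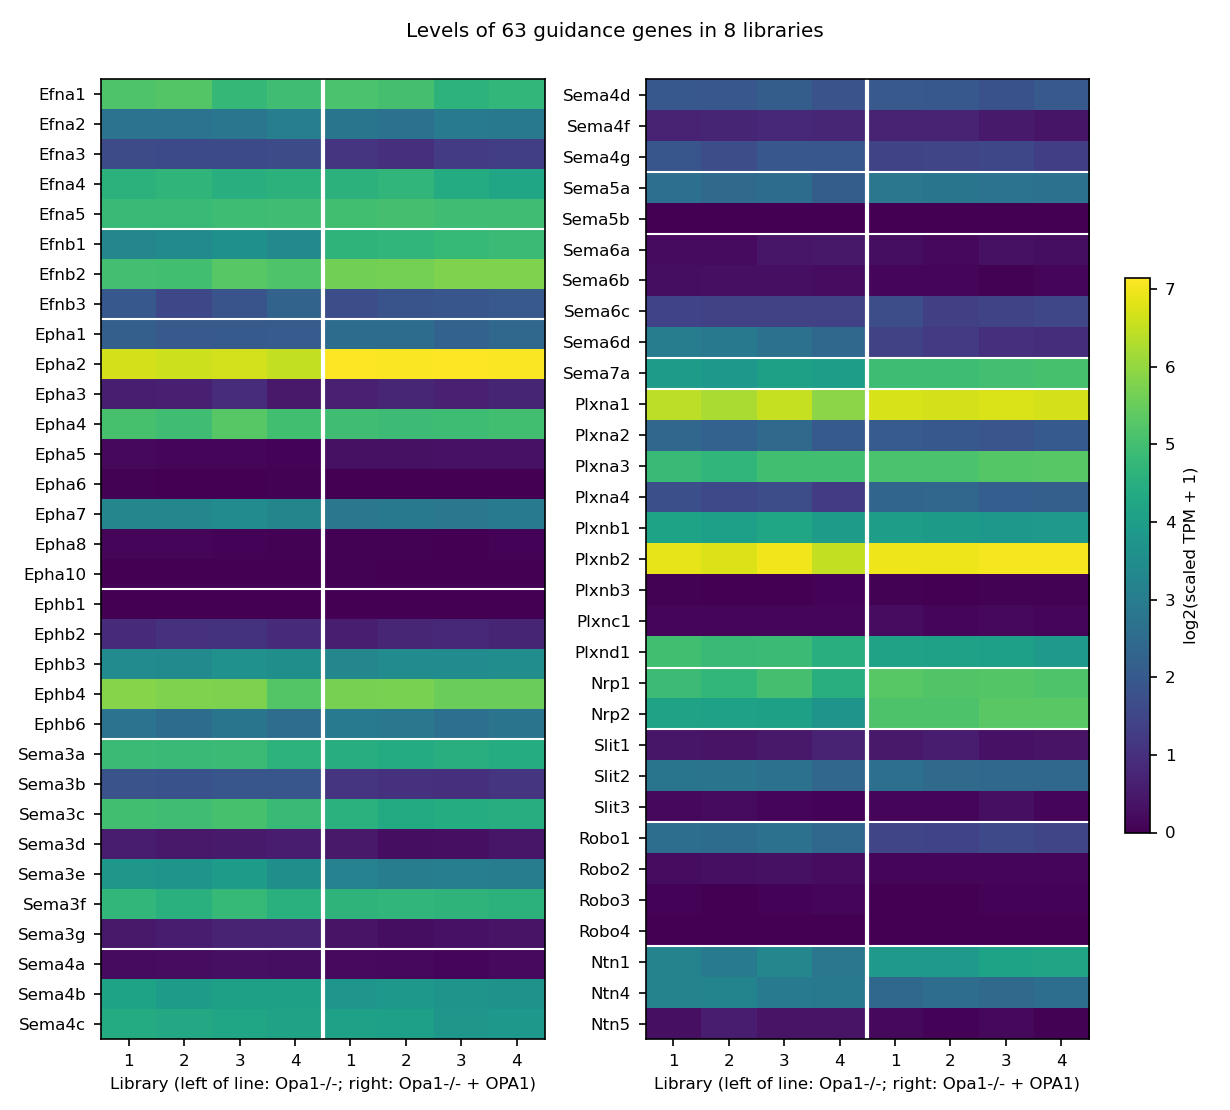
Heat map of log2(scaled TPM + 1) for the 63 guidance genes (rows, by family) in the 8 libraries (columns), with Opa1-/- libraries 1 to 4 left of the white line and Opa1-/- + OPA1 libraries 1 to 4 right of it. Epha2, Plxnb2 and Plxna1 are the brightest rows, and the 22 genes below the filter give dark rows.

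Of the 41 members tested, 26 changed, 14 higher and 12 lower in Opa1-/- libraries, and 15 did not pass. That is 63.4% of the members, where 33.0% of all genes tested passed, 16.3% higher and 16.8% lower. Counts within families below are to be read beside these shares. With an absolute log2 difference of at least 0.5 there were 14 members, 7 higher and 7 lower (34.1%), against 7.16% of all genes. The libraries of the groups did not overlap for 26 members (63.4%), against 36.3% of all genes. The median absolute difference was 0.35 over the members and 0.16 over all genes tested, and the median signed difference was 0.04 over the members and -0.00 over all genes. The median exon length of the members tested was 6855 bases, against 3709.5 bases for all genes tested, and a longer gene yields more reads at the same TPM. In bulk RNA, fewer cells that express a gene and less of its RNA per cell cannot be told apart.

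**Figure D2:**
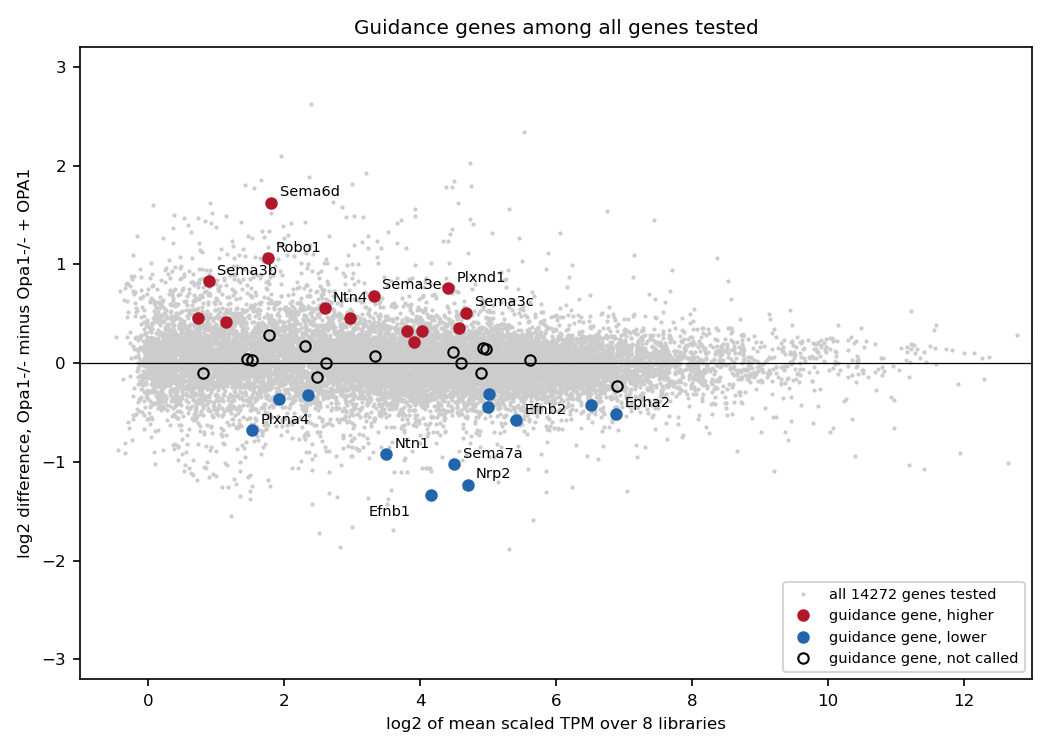
Log2 difference (Opa1-/- minus Opa1-/- + OPA1) against the log2 of mean scaled TPM for all 14272 genes tested (grey) and the 41 guidance genes tested (red higher, blue lower, open not called). The changed members lie between Sema6d at 1.62 and Efnb1 at -1.34 and span low and high levels, and those with an absolute difference of at least 0.5 are named.

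A promoter entry existed for 55 of the 63 members and for 22 of the 26 whose level changed (13 higher, 9 lower). The windows of 250 bases before the start were searched on both strands for 8 motifs. The GC box was in 11 of 13 raised and 8 of 9 lowered members, where 61.5% of the promoters of all 9312 genes tested with an entry held it. The E-box was in 1 raised member, Sema6d, and in 8.75% of the promoters of genes tested. The cyclic AMP response element TGACGTCA was in 1 lowered member, Epha2, with a share of 2.91% among genes tested. The C/EBP-ATF composite TGATGCAA, which is read by the stress factor ATF4, was in no window of a changed member and in 0.483% of promoters of genes tested. GGAATG, the TEAD motif, was in 2 raised members (Plxnd1 and Plxnb1) and 3 lowered ones (Epha1, Epha2 and Efnb2), with a share of 10.2%. The AP-1 motif TGANTCA was in Sema4c (3.99% of promoters of genes tested), the CCAAT box CCAAT in Epha7, Efnb1 and Efnb2 (37.2%), and TATAAA in Efnb2 (6.06%). A match here is a run of letters, not a bound site.

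Ephrin-B ligands fell and ephrin-A ligands mostly did not pass the test. Of the 3 ephrin-B genes, Efnb1 and Efnb2 fell and Efnb3 did not pass, and their summed level was 42.3 to 52.1 TPM in Opa1-/- libraries and 74.8 to 84.8 TPM in Opa1-/- + OPA1 libraries. Efnb1 (ENSMUSG00000031217; chromosome X, 99136130 to 99148991, plus strand), a transmembrane ligand of EphB receptors, was at 8.98, 9.59, 11.0 and 9.23 TPM in Opa1-/- libraries 1 to 4, and at 24.1, 25.2, 26.7 and 28.2 TPM in Opa1-/- + OPA1 libraries 1 to 4. Every Opa1-/- library was below every Opa1-/- + OPA1 library, and the ratio of the means was 0.372. The difference was -1.34 (SE 0.07, adjusted p = 7.71e-06 by limma-trend). Efnb2 (ENSMUSG00000001300; chromosome 8, 8617434 to 8661242, minus strand), the ligand of the vascular receptor EPHB4, was at 31.3, 30.8, 38.5 and 35.6 TPM in Opa1-/- libraries, against 48.5, 49.7, 53.3 and 53.6 TPM in Opa1-/- + OPA1 libraries. The groups did not overlap (-0.58, SE 0.07, adjusted p = 0.000532 by limma-trend). Efnb3 averaged 2.81 ± 0.781 TPM in Opa1-/- and 2.66 ± 0.308 TPM in Opa1-/- + OPA1 libraries (SD, n = 4 each; 0.04, 95% interval -0.29 to 0.37).

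Among the ephrin-A ligands, which are tethered to the membrane by a lipid anchor, 1 of 5 passed. Efna3 averaged 2.07 ± 0.0578 TPM in Opa1-/- and 1.25 ± 0.238 TPM in Opa1-/- + OPA1 libraries (SD, n = 4 each; 0.45, SE 0.10, adjusted p = 0.00821 by limma-trend), and 14.1% of its exon bases overlap the opposite-strand gene Gm15998. Efna1, the most abundant of the class, was at 35.4, 36.7, 25.9 and 29.9 TPM in Opa1-/- libraries 1 to 4 and at 33.8, 31.9, 23.8 and 25.5 TPM in Opa1-/- + OPA1 libraries 1 to 4. The groups overlapped, but in each numbered pair the Opa1-/- library was the higher one. Its difference of 0.15 did not pass (adjusted p = 0.440 by limma-trend) and passed with the replicate number as a block (adjusted p = 0.0442). Efna5 averaged 28.7 ± 1.18 TPM in Opa1-/- and 30.7 ± 1.05 TPM in Opa1-/- + OPA1 libraries (SD, n = 4 each), with no overlap and a difference of -0.10 that did not pass (adjusted p = 0.127 by limma-trend). Efna2 and Efna4 had differences of -0.00 and 0.12, with 95% intervals of -0.22 to 0.22 and -0.11 to 0.34.

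Of the 7 Eph receptors tested, Epha1 and Epha2 fell, Epha7 rose and 4 did not pass. Epha2 (ENSMUSG00000006445; chromosome 4, 141301240 to 141329384, plus strand), a receptor of ephrin-A1 found in epithelia and many tumours, was at 103, 96.5, 100.0 and 88.5 TPM in Opa1-/- libraries, against 141, 137, 139 and 137 TPM in Opa1-/- + OPA1 libraries. The lowest Opa1-/- + OPA1 library stood well above the highest Opa1-/- library. The difference was -0.51 (SE 0.05, adjusted p = 0.000107 by limma-trend). Epha7, a receptor of ephrin-A ligands known from the developing cortex, averaged 9.16 ± 0.578 TPM in Opa1-/- and 6.39 ± 0.393 TPM in Opa1-/- + OPA1 libraries (SD, n = 4 each; 0.46, SE 0.06, adjusted p = 0.000785 by limma-trend). Epha1, a receptor that binds ephrin-A1, averaged 3.19 ± 0.223 TPM in Opa1-/- and 4.40 ± 0.470 TPM in Opa1-/- + OPA1 libraries (SD, n = 4 each; -0.36, adjusted p = 0.00983 by limma-trend), and 6.01% of its exon bases overlap Zyx on the opposite strand. Epha4, which binds ligands of both ephrin classes, had a difference of 0.14 that did not pass (95% interval -0.02 to 0.30).

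None of the 3 EphB receptors tested passed by limma-trend. Ephb4, the receptor of ephrin-B2, was at 56.4, 53.7, 52.9 and 36.8 TPM in Opa1-/- libraries 1 to 4, against 50.4, 51.6, 45.5 and 45.8 TPM in Opa1-/- + OPA1 libraries 1 to 4. Opa1-/- library 4 was the lowest of the 8 and the other 3 Opa1-/- libraries were the highest. With all libraries the difference was 0.03 (adjusted p = 0.878 by limma-trend), and without Opa1-/- library 4 it was 0.17 (adjusted p = 0.0378). Ephb3 and the kinase-dead Ephb6 had differences of 0.07 and -0.14, with 95% intervals of -0.08 to 0.23 and -0.35 to 0.06. Set side by side, the 3 ephrin-B ligands had differences of -1.34, -0.58 and 0.04 and the 3 EphB receptors tested had differences of -0.14 to 0.07, and whether the families differ was not tested.

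**Figure D3:**
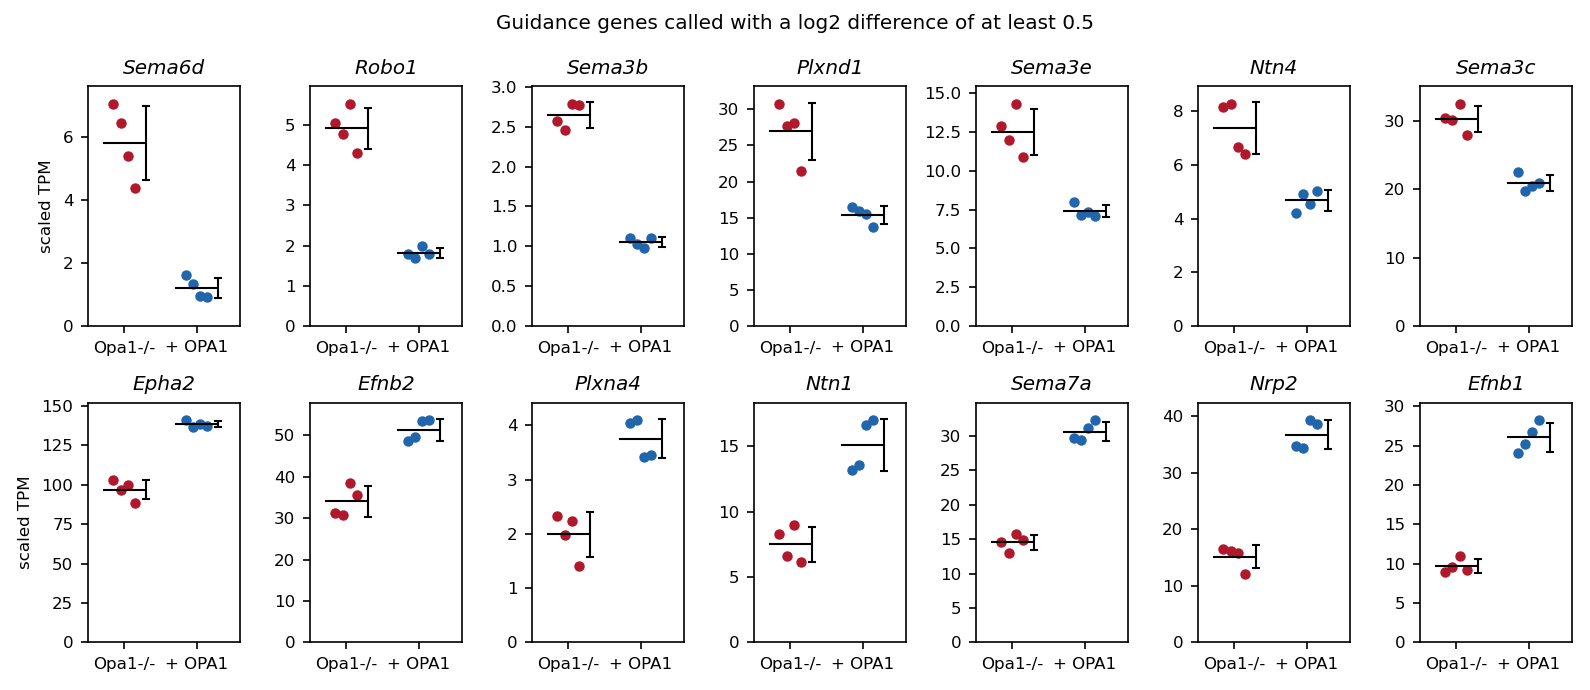
Scaled TPM in each library (points, in the order 1 to 4) for the 14 guidance genes called with an absolute log2 difference of at least 0.5, Opa1-/- left and Opa1-/- + OPA1 (written + OPA1) right, with the mean (line) and SD (bar, n = 4). In the upper panels, from Sema6d to Sema3c, all 4 Opa1-/- libraries lie above the Opa1-/- + OPA1 libraries, and in the lower panels, from Epha2 to Efnb1, all 4 lie below them.

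Most secreted class 3 semaphorins tested rose. Of 5 tested, Sema3a, Sema3b, Sema3c and Sema3e rose and Sema3f did not pass, where 16.3% of all genes tested were higher. Of the raised genes, Sema3a, Sema3c and Sema3e lie between 13125414 and 17730268 on chromosome 5, and whether they moved independently was not tested. The summed class 3 level was 88.5 to 105 TPM in Opa1-/- libraries and 73.4 to 77.5 TPM in Opa1-/- + OPA1 libraries. Sema3c (ENSMUSG00000028780; chromosome 5, 17574281 to 17730268, plus strand), a ligand of neuropilins and plexin-D1 with a role in the cardiac outflow tract, was at 30.5, 30.1, 32.5 and 27.9 TPM in Opa1-/- libraries, against 22.5, 19.8, 20.5 and 20.8 TPM in Opa1-/- + OPA1 libraries. The groups did not overlap (0.51, SE 0.06, adjusted p = 0.000271 by limma-trend). Sema3e (ENSMUSG00000063531; chromosome 5, 14025276 to 14256689, plus strand), which binds plexin-D1 without a neuropilin, was at 12.9, 12.0, 14.3 and 10.9 TPM in Opa1-/- libraries, against 7.96, 7.12, 7.35 and 7.11 TPM in Opa1-/- + OPA1 libraries. Its lowest Opa1-/- library was above its highest Opa1-/- + OPA1 library, and the mean level was 1.69-fold higher (0.68, SE 0.08, adjusted p = 0.000349 by limma-trend).

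Sema3b (ENSMUSG00000057969; chromosome 9, 107597674 to 107609229, minus strand), a neuropilin ligand known as a growth suppressor in tumour cells, was at 2.57, 2.46, 2.79 and 2.77 TPM in Opa1-/- libraries and at 1.11, 1.03, 0.977 and 1.10 TPM in Opa1-/- + OPA1 libraries. The groups were well apart, with means 2.52-fold higher (0.83, SE 0.08, adjusted p = 0.000144 by limma-trend). Sema3a, the founding collapsin that acts through neuropilin-1, averaged 26.9 ± 2.21 TPM in Opa1-/- and 20.8 ± 0.462 TPM in Opa1-/- + OPA1 libraries (SD, n = 4 each; 0.35, adjusted p = 0.00227 by limma-trend). Sema3f, a ligand of neuropilin-2, averaged 24.1 ± 2.22 TPM in Opa1-/- and 24.1 ± 0.739 TPM in Opa1-/- + OPA1 libraries (SD, n = 4 each), with a 95% interval of -0.15 to 0.14 for the difference.

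Of the 4 transmembrane class 4 semaphorins tested, Sema4b, Sema4c and Sema4g rose and Sema4d did not pass, where 16.3% of all genes were higher. Sema4c, a ligand of plexin-B2 and the most abundant of the class, was at 20.1, 19.0, 17.5 and 16.3 TPM in Opa1-/- libraries and at 16.0, 15.3, 12.8 and 13.1 TPM in Opa1-/- + OPA1 libraries. The groups did not overlap, but only narrowly (0.33, SE 0.09, adjusted p = 0.0189 by limma-trend). Without Opa1-/- library 1, Opa1-/- + OPA1 library 3 or Opa1-/- + OPA1 library 4 its adjusted p was 0.0521, 0.0556 or 0.0562, and 7.27% of its exon bases overlap an opposite-strand gene. Sema4b averaged 15.7 ± 0.825 TPM in Opa1-/- and 12.3 ± 0.555 TPM in Opa1-/- + OPA1 libraries (SD, n = 4 each; 0.33, adjusted p = 0.00190 by limma-trend). Sema4g averaged 2.67 ± 0.308 TPM in Opa1-/- and 1.75 ± 0.172 TPM in Opa1-/- + OPA1 libraries (SD, n = 4 each; 0.42, adjusted p = 0.00934 by limma-trend). Sema4d, the ligand of plexin-B1, had a difference of 0.03 (95% interval -0.17 to 0.23).

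Of the other classes, Sema6d rose, Sema7a and Sema5a fell, and Sema6c did not pass. Sema6d (ENSMUSG00000027200; chromosome 2, 124089969 to 124667770, plus strand), a transmembrane ligand of plexin-A1 and plexin-A4 with a role in heart development, was at 7.05, 6.42, 5.40 and 4.36 TPM in Opa1-/- libraries 1 to 4, against 1.61, 1.32, 0.955 and 0.921 TPM in Opa1-/- + OPA1 libraries 1 to 4. Its mean was 4.83-fold higher, and in both groups libraries 1 and 2 were above libraries 3 and 4. The difference of 1.62 was the highest of the members tested (SE 0.15, adjusted p = 0.000101 by limma-trend). Sema7a (ENSMUSG00000038264; chromosome 9, 57940112 to 57962865, plus strand), a lipid-anchored semaphorin that signals through beta-1 integrins and plexin-C1, was at 14.5, 13.1, 15.7 and 14.9 TPM in Opa1-/- libraries, against 29.7, 29.4, 31.2 and 32.3 TPM in Opa1-/- + OPA1 libraries. Its groups were far apart and tight, at a ratio of 0.475 (-1.03, SE 0.06, adjusted p = 1.31e-05 by limma-trend).

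Sema5a, a transmembrane semaphorin with thrombospondin repeats, was at 5.09, 4.55, 4.74 and 3.34 TPM in Opa1-/- libraries and at 6.07, 5.93, 5.55 and 5.39 TPM in Opa1-/- + OPA1 libraries. No library overlapped, yet the difference of -0.32 passed only just (SE 0.11, adjusted p = 0.0437 by limma-trend). The call was lost without Opa1-/- library 2 or 3 or any 1 of the 4 Opa1-/- + OPA1 libraries (adjusted p = 0.0529 to 0.105). In all, 11 of 22 alternative settings ended it, among them no scaling and upper-quartile scaling (adjusted p = 0.0817 and 0.0516 by limma-trend). Sema6c averaged 1.65 ± 0.0533 TPM in Opa1-/- and 1.85 ± 0.278 TPM in Opa1-/- + OPA1 libraries (SD, n = 4 each) and did not pass (adjusted p = 0.457 by limma-trend). Over all classes, 8 of 13 semaphorins tested rose and 2 fell, where 16.3% of all genes tested were higher and 16.8% lower. The summed level of the 20 semaphorins was 152 to 174 TPM in Opa1-/- libraries and 144 to 151 TPM in Opa1-/- + OPA1 libraries.

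Both neuropilins, the co-receptors of class 3 semaphorins and of vascular endothelial growth factors (VEGFs), fell while most of their class 3 ligands rose. Of all genes tested, 16.8% were lower. The summed neuropilin level was 33.7 to 47.5 TPM in Opa1-/- libraries and 70.2 to 76.3 TPM in Opa1-/- + OPA1 libraries. Nrp2 (ENSMUSG00000025969; chromosome 1, 62703285 to 62818695, plus strand) was at 16.5, 16.1, 15.8 and 12.1 TPM in Opa1-/- libraries 1 to 4, against 34.7, 34.3, 39.2 and 38.6 TPM in Opa1-/- + OPA1 libraries 1 to 4. Opa1-/- library 4 was the lowest, and the other 3 Opa1-/- libraries were also below every Opa1-/- + OPA1 library (ratio 0.412; -1.23, SE 0.10, adjusted p = 4.97e-05 by limma-trend). Nrp1 (ENSMUSG00000025810; chromosome 8, 128358604 to 128503363, plus strand) was at 28.8, 25.6, 31.7 and 21.6 TPM in Opa1-/- libraries and at 38.5, 35.9, 37.1 and 35.0 TPM in Opa1-/- + OPA1 libraries. No library of one group fell within the range of the other (-0.44, SE 0.10, adjusted p = 0.00935 by limma-trend). The median of 524 chromosome 8 genes was itself at -0.18, and with chromosome medians removed the Nrp1 difference was -0.26 and did not pass (adjusted p = 0.0822), whereas Nrp2 was called under each of the 22 alternative settings.

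Plexins moved both ways, with Plxna1, Plxna3 and Plxna4 lower, Plxnb1 and Plxnd1 higher, and Plxna2 and Plxnb2 not passing. Plxnd1 (ENSMUSG00000030123; chromosome 6, 115954811 to 115995005, minus strand), the receptor of semaphorin 3E, was at 30.8, 27.6, 28.1 and 21.4 TPM in Opa1-/- libraries, against 16.5, 16.0, 15.6 and 13.6 TPM in Opa1-/- + OPA1 libraries. Its lowest Opa1-/- library was still above every Opa1-/- + OPA1 library, and the mean was 1.75-fold higher (0.76, SE 0.11, adjusted p = 0.000786 by limma-trend). Plxna4 (ENSMUSG00000029765; chromosome 6, 32144268 to 32588192, minus strand), a partner of neuropilin-1 and a receptor of class 6 semaphorins, was at 2.34, 1.98, 2.24 and 1.40 TPM in Opa1-/- libraries and at 4.05, 4.09, 3.42 and 3.46 TPM in Opa1-/- + OPA1 libraries. Every Opa1-/- library was the lower one against each Opa1-/- + OPA1 library (-0.68, SE 0.12, adjusted p = 0.00248 by limma-trend). The plexin-D1 receptor and its ligand Sema3e both rose, while plexin-A4 fell and its ligand Sema6d rose.

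Plxnb2, the member with the highest mean of the plexins, was at 117, 108, 126 and 88.4 TPM in Opa1-/- libraries 1 to 4, against 125, 125, 132 and 132 TPM in Opa1-/- + OPA1 libraries 1 to 4. Opa1-/- library 3 lay within the range of the Opa1-/- + OPA1 libraries and library 4 was well below it. The difference was -0.23 (95% interval -0.45 to -0.02, adjusted p = 0.0921 by limma-trend), and it passed without Opa1-/- library 3 (-0.31, adjusted p = 0.0311). Plxna1, a receptor of class 3 and class 6 semaphorins, averaged 78.1 ± 14.3 TPM in Opa1-/- and 104 ± 1.80 TPM in Opa1-/- + OPA1 libraries (SD, n = 4 each; -0.43, adjusted p = 0.0210 by limma-trend). That call was lost without Opa1-/- library 2 or Opa1-/- + OPA1 library 1 or 3 (adjusted p = 0.0502, 0.0502 and 0.0548), and 10.7% of the exon bases overlap the opposite-strand gene Gm26811. Plxnb1, the receptor of semaphorin 4D, averaged 16.1 ± 1.42 TPM in Opa1-/- and 13.8 ± 0.855 TPM in Opa1-/- + OPA1 libraries (SD, n = 4 each). It was the member whose groups overlapped although it was called (0.21, adjusted p = 0.0454 by limma-trend). Its adjusted p was 0.0502 with the replicate block and 0.222 with chromosome medians removed. It was 0.0654 to 0.128 without any 1 of 6 libraries, all but Opa1-/- library 4 and Opa1-/- + OPA1 library 1. Plxna2 had a difference of 0.29 (95% interval 0.06 to 0.52, adjusted p = 0.0569 by limma-trend), and it passed under 7 of the 22 alternatives, among them without Opa1-/- library 4 (0.37, adjusted p = 0.00926), limma-voom on recovered reads (adjusted p = 0.0159) and length and GC trends removed (adjusted p = 0.00665). With those trends removed, Plxnb2 (-0.24, adjusted p = 0.0227) and Epha4 (0.19, adjusted p = 0.0325) passed as well.

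Robo1 rose and its ligand Slit2 did not pass. Robo1 (ENSMUSG00000022883; chromosome 16, 72308306 to 73046095, plus strand), a receptor of Slit proteins, was at 5.05, 4.77, 5.53 and 4.31 TPM in Opa1-/- libraries, against 1.79, 1.70, 2.00 and 1.80 TPM in Opa1-/- + OPA1 libraries. All 4 Opa1-/- libraries stood far above the others, with means 2.70-fold higher (1.06, SE 0.08, adjusted p = 5.21e-05 by limma-trend). Slit2 was at 5.92, 5.69, 5.40 and 4.13 TPM in Opa1-/- libraries 1 to 4, against 5.08, 4.52, 4.34 and 4.26 TPM in Opa1-/- + OPA1 libraries 1 to 4. Opa1-/- library 4 was below all Opa1-/- + OPA1 libraries and the other 3 were above them. The difference was 0.17 (95% interval -0.06 to 0.40, adjusted p = 0.236 by limma-trend), and 0.27 without Opa1-/- library 4 (adjusted p = 0.0189).

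The 2 netrins tested moved in opposite directions. Ntn1 (ENSMUSG00000020902; chromosome 11, 68209364 to 68400823, minus strand), the secreted ligand of DCC and UNC5 receptors, was at 8.26, 6.63, 9.00 and 6.13 TPM in Opa1-/- libraries and at 13.2, 13.6, 16.6 and 17.0 TPM in Opa1-/- + OPA1 libraries. The groups did not overlap, at a ratio of 0.498 (-0.92, SE 0.12, adjusted p = 0.000696 by limma-trend). Ntn4 (ENSMUSG00000020019; chromosome 10, 93640681 to 93747207, plus strand), a basement membrane netrin that binds laminin, was at 8.17, 8.27, 6.66 and 6.42 TPM in Opa1-/- libraries and at 4.19, 4.92, 4.54 and 5.04 TPM in Opa1-/- + OPA1 libraries. Each Opa1-/- library was above each Opa1-/- + OPA1 library (0.56, SE 0.09, adjusted p = 0.00212 by limma-trend). Ntn1 had the higher level of the pair in Opa1-/- + OPA1 libraries, and in Opa1-/- libraries both were at similar levels, with means of 7.51 TPM for Ntn1 and 7.38 TPM for Ntn4.

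**Figure D4:**
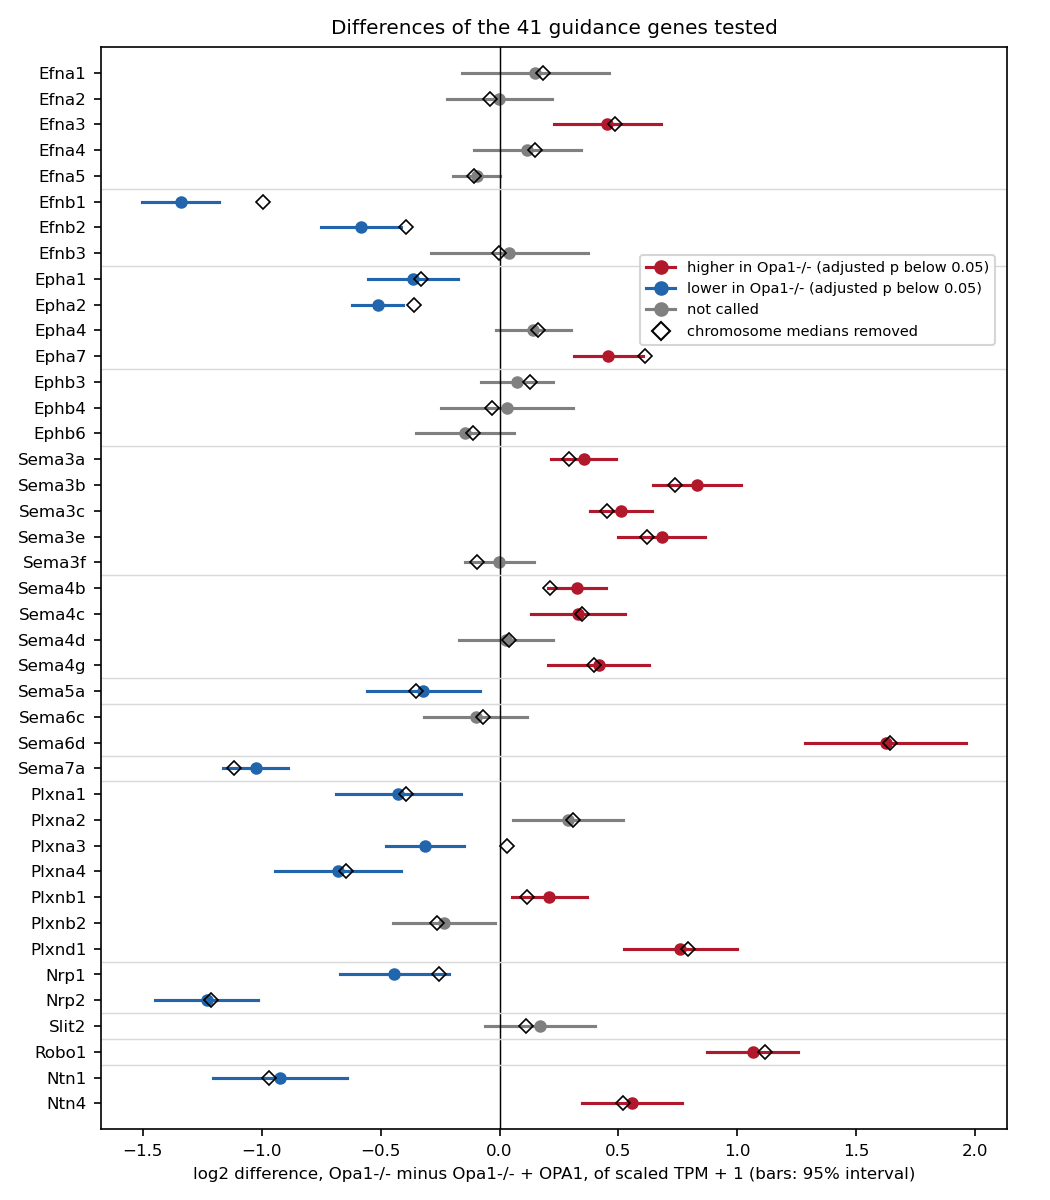
Log2 difference (Opa1-/- minus Opa1-/- + OPA1) of log2(scaled TPM + 1) for the 41 guidance genes tested, by family, with 95% confidence intervals; diamonds give the difference with the median of each chromosome removed. The red points of class 3 and class 4 semaphorins lie right of 0 and the blue points of Efnb1, Efnb2, Nrp1 and Nrp2 left of it, and the diamond of X-linked Plxna3 sits at 0.03.

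The X-linked members Efnb1 and Plxna3 lay on a chromosome whose genes were low as a whole, with a median difference of -0.36 over 301 genes. Plxna3, a receptor of class 3 semaphorins, was at 27.6, 25.2, 30.8 and 30.8 TPM in Opa1-/- libraries, against 34.1, 33.7, 37.3 and 37.9 TPM in Opa1-/- + OPA1 libraries. The groups did not overlap (-0.31, SE 0.07, adjusted p = 0.00981 by limma-trend). With chromosome medians removed, Plxna3 was at 0.03 (adjusted p = 0.785) and Efnb1 at -0.996 (adjusted p = 3.65e-05). Nrp2 and Sema7a were then lower than Efnb1, at -1.21 and -1.12. The other changed members on chromosomes with medians beyond 0.1 were Epha2 and Epha7 on chromosome 4 (median -0.15), Nrp1 and Efnb2 on chromosome 8, and Sema4b on chromosome 7 (median 0.11). After the removal Epha2, Epha7, Efnb2 and Sema4b were called too, at -0.36, 0.61, -0.39 and 0.21, and Nrp1 was not. Plxnb1, on chromosome 9 with a median of 0.0953, also lost its call (0.12, adjusted p = 0.222 by limma-trend).

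The count of changed members came through the 22 alternatives with 12 to 18 higher and 10 to 13 lower, and 20 of the 26 calls passed in every one. Fits with no filter covered 62 members, among them the fit with 18 higher, and the 0.5 TPM filter covered 44. Opa1-/- library 4 was the lowest of its group in 23 of the 41 members tested, with a median deviation of -0.11 from the group mean over the members and 0.00 over all genes. Without it, 17 members were higher and 12 lower. Calls over all 14272 genes tested also rose without it, to 2640 higher and 2773 lower from 2322 and 2392. The calls not kept throughout were those of Sema4c, Plxna3, Plxna1, Nrp1, Plxnb1 and Sema5a.

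Other genes of these pathways were read from 5 lists, 3 of effectors and 2 mainly of further ligands and receptors. Of 66 genes tested, 8 rose and 19 fell, which is 40.9%, where 33.0% of all genes passed. The list median was -0.07. Without Opa1-/- library 4, 13 rose and 21 fell, where 2640 of all 14272 genes were higher and 2773 lower. Among 21 semaphorin and plexin effectors tested, 1 rose (Mras) and 9 fell (47.6%). Farp2, a Rac activator that binds plexin-A1, averaged 4.86 ± 1.21 TPM in Opa1-/- and 7.81 ± 0.690 TPM in Opa1-/- + OPA1 libraries (SD, n = 4 each; -0.61, adjusted p = 0.0128 by limma-trend). Dpysl3, a collapsin response mediator protein, averaged 76.5 ± 7.31 TPM in Opa1-/- and 101 ± 5.27 TPM in Opa1-/- + OPA1 libraries (-0.40, adjusted p = 0.00219 by limma-trend). Rras2 and Rnd1, small GTPases of the plexin pathway, fell by 0.34 and 0.32.

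Among 19 effectors of ephrin and Eph signalling tested, 2 rose and 4 fell, a share of 31.6% that is near the 33.0% of all genes. Src, a tyrosine kinase that acts below both ephrins and Ephs, averaged 47.1 ± 4.23 TPM in Opa1-/- and 69.1 ± 1.73 TPM in Opa1-/- + OPA1 libraries (SD, n = 4 each; -0.55, adjusted p = 0.000312 by limma-trend). Ngef, which encodes ephexin, and Kalrn, a Rac activator, fell by 0.43 and 0.40, while the kinase Fyn rose by 0.32. Among 12 Slit and Robo effectors tested, 2 rose and 1 fell (25%, below the share of all genes). Srgap1, a GTPase-activating protein bound by ROBO1, averaged 3.24 ± 0.474 TPM in Opa1-/- and 1.54 ± 0.163 TPM in Opa1-/- + OPA1 libraries (SD, n = 4 each; 0.73, adjusted p = 0.000891 by limma-trend). Enah, an actin regulator, rose by 0.38 and Srgap3 fell by 0.38.

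Another list held further netrin and repulsive guidance receptors and ligands, with the effectors Trio, Ablim1 and Ptk2 among its 9 genes tested. Rgma rose by 0.27. Flrt2, a ligand of UNC5D, and Trio, a guanine nucleotide exchange factor, fell by 0.70 and 0.20. Of the genes tested 33.3% passed, near the share of all genes. The netrin receptors Dcc, Unc5a, Unc5c and Unc5d were not tested, and Dcc was listed at 0 in every library. Unc5b and Neo1 of the same list were tested, at means of 33.1 and 74.7 TPM over the 8 libraries. Their differences of -0.21 and 0.21 did not pass. All 5 VEGF genes tested that act with neuropilins passed, 2 higher and 3 lower, where 33.0% of all genes passed. Vegfa, the main angiogenic ligand, averaged 70.9 ± 3.28 TPM in Opa1-/- and 50.8 ± 0.543 TPM in Opa1-/- + OPA1 libraries (SD, n = 4 each; 0.47, adjusted p = 6.85e-05 by limma-trend). Vegfc, a ligand of the lymphatic receptor, averaged 16.2 ± 0.995 TPM in Opa1-/- and 24.4 ± 2.01 TPM in Opa1-/- + OPA1 libraries (-0.55, adjusted p = 0.000425 by limma-trend). Flt1, a VEGF receptor, averaged 0.619 ± 0.113 TPM in Opa1-/- and 2.54 ± 0.0831 TPM in Opa1-/- + OPA1 libraries (-1.13, adjusted p = 5.88e-05 by limma-trend), and it was tested because of its Opa1-/- + OPA1 level alone. Pgf, another VEGF family ligand, fell by 0.29.

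The 22 members below the filter were looked at as reads recovered from the TPM, with limma-voom and no filter, an alternative chosen after seeing the data. Of 21 with a value, 6 passed, 5 higher and 1 lower, where 15.9% of 30480 genes passed. Those 30480 genes include the ones that met the filter, and a share over low genes alone was not computed. Epha5, an ephrin-A receptor, had 32, 26, 24 and 19 reads in Opa1-/- libraries, against 83, 74, 83 and 88 reads in Opa1-/- + OPA1 libraries. The groups were far apart (-1.71, adjusted p = 9.37e-05 by limma-voom). Robo2, the second Slit receptor, had 58, 68, 79 and 62 reads in Opa1-/- libraries, against 31, 27, 20 and 26 reads in Opa1-/- + OPA1 libraries, so that it was higher in all 4 Opa1-/- libraries, as was Robo1 (1.35, adjusted p = 0.000769 by limma-voom). Robo1 and Robo2 lie on chromosome 16, at 72308306 to 73046095 and 73891839 to 74411825, and whether they moved independently was not tested.

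Ntn5 had 9, 18, 12 and 13 reads in Opa1-/- libraries, against 5, 2, 5 and 1 reads in Opa1-/- + OPA1 libraries (2.00, adjusted p = 0.0119 by limma-voom), and 23.4% of its exon bases overlap Sec1 on the opposite strand. Sema6b had 15, 16, 16 and 13 reads in Opa1-/- libraries, against 6, 7, 2 and 6 reads in Opa1-/- + OPA1 libraries (1.54, adjusted p = 0.0194 by limma-voom). Both sets of groups were apart, at counts where a few reads move the value. Sema3g, a class 3 semaphorin, and Ephb2, a receptor of ephrin-B ligands, also passed, at 0.87 (adjusted p = 0.0300) and 0.47 (adjusted p = 0.0481) by limma-voom. With a pseudocount of 0.1 TPM and no filter those last genes did not pass (adjusted p = 0.0944 for Sema3g and 0.224 for Ephb2), while Epha5, Ntn5, Robo2 and Sema6b did (adjusted p = 0.00957 to 0.0273 by limma-trend).

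The other 15 low members with a value did not pass by limma-voom. Some had very few reads. Ephb1 had 1 read in 1 library of each group, and Robo4, Epha6 and Epha10 had 0 to 3 reads per library. Plxnb3, which is X-linked, had 3, 0, 1 and 5 reads in Opa1-/- libraries, against 3, 2, 4 and 3 reads in Opa1-/- + OPA1 libraries, and the groups overlapped. Epha3, with 68 to 140 reads in Opa1-/- libraries and 95 to 114 reads in Opa1-/- + OPA1 libraries, overlapped between the groups. Slit1 and Slit3 also overlapped, with 31 to 74 and 7 to 16 reads in Opa1-/- libraries and 31 to 54 and 7 to 25 reads in Opa1-/- + OPA1 libraries.

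**Figure D5:**
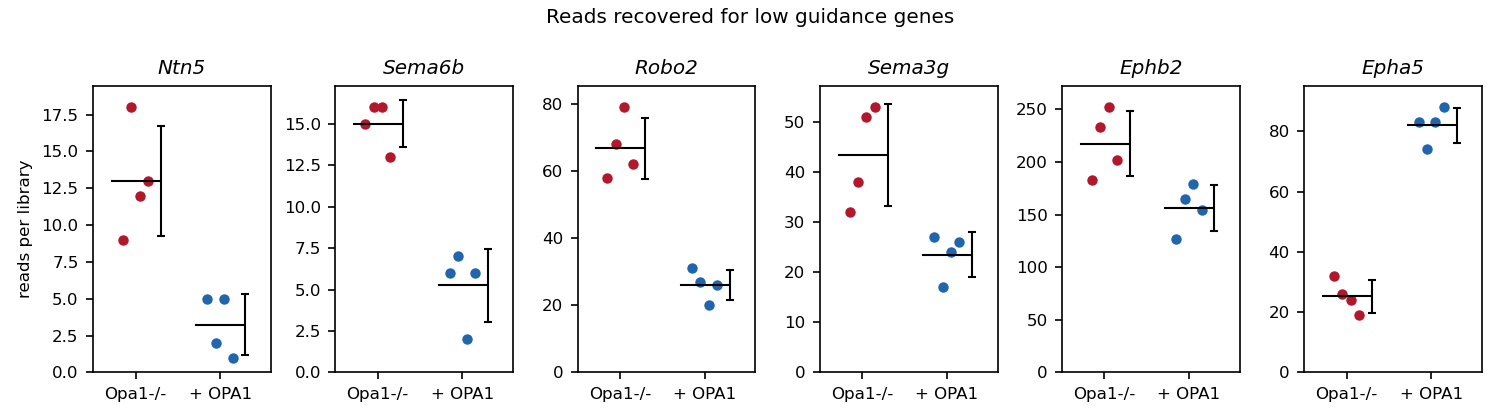
Recovered reads per library (points, in the order 1 to 4) for the 6 low guidance genes that passed by limma-voom with no filter, Opa1-/- left and Opa1-/- + OPA1 (written + OPA1) right, with the mean (line) and SD (bar, n = 4). Ntn5 and Sema6b rest on 18 or fewer reads per library, and Epha5 is the one that is lower in Opa1-/- libraries.

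Across the whole series, Opa1 itself was at 12.5 to 14.8 TPM in Opa1-/- libraries and 14.5 to 15.6 TPM in Opa1-/- + OPA1 libraries (-0.09, 95% interval -0.22 to 0.05, adjusted p = 0.305 by limma-trend), so the gene total does not check the labels. Of 11 fibroblast markers, 9 were at 1 TPM or more in all libraries, led by Vim, with 1 higher (Col3a1) and 5 lower (Col1a1, Col1a2, Pdgfrb, S100a4 and Dcn). Their summed level was 2717 to 2999 TPM in Opa1-/- libraries and 3164 to 3225 TPM in Opa1-/- + OPA1 libraries. All 6 endothelial markers were below 1 TPM in every library, including Pecam1 and Cdh5. Of 6 epithelial markers, Krt8, Krt18 and Cdh1 were tested and Krt8 and Cdh1 were higher, with sums of 176 to 213 TPM in Opa1-/- libraries and 144 to 207 TPM in Opa1-/- + OPA1 libraries. Of 6 neuronal markers, 4 were tested and Syn1 was lower, with sums of 13.8 to 16.9 TPM in Opa1-/- libraries and 15.8 to 17.5 TPM in Opa1-/- + OPA1 libraries. Cnn1 was lower among 5 smooth muscle markers and Cd14 among 6 macrophage and leukocyte markers, and Foxd3 of the 5 glial markers was at 0. The part of these markers in the differences of the guidance genes was not tested.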

How the data were processed

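Per the labels' protocols, RNA was isolated with the RNeasy Plus kit and made into libraries with the NEBNext Ultra II kit. The submitters' processing notes name bcl2fastq 2.17, STAR 2.5.2b, Subread 1.5.2 and featureCounts, together with 2 builds, mm10 and GRCh38, without roles. The sources used here do not give whether strand was kept, and reads of overlapping genes on opposite strands cannot be told apart. Per the file headers, the authors deposited TPM values per gene, which sum to 1000000 in each library, so the values are not counts.

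Positions, exon lengths and overlaps came from GENCODE M21 (GRCm38), which held 49056 of 49315 identifiers. Reads were recovered from TPM times exon length, and 96.7% to 97.0% of low values were whole within 0.05 of a read. Scaling used the trimmed mean of log ratios, leaving out 30% of ratios and 5% of levels at each end. The filter asked for 1 TPM in 4 or more libraries. The 14272 genes left were tested in limma 3.58.1 (R 4.3.3) as log2(scaled TPM + 1) with a mean-variance trend, two-sided, with no covariate, and adjusted by Benjamini-Hochberg. The procedure was run on simulated data drawn independently for each library, so shared deviations of same-numbered libraries were not part of it. Python 3.11.15 with pandas 2.3.3, numpy 2.4.6 and matplotlib 3.10.9 did the rest.

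The members, gene lists and alternatives were chosen with earlier results of these data known. Values in every library are given for members called with an absolute difference of at least 0.5, for the most abundant member of each family and for X-linked members that were tested, and up to 4 called genes are named per list. Other genes, such as those that stand alone in a count, were named after their values were seen. Same-numbered libraries deviated together over 9416 genes (correlations 0.25, 0.22, 0.32 and 0.12). Unlike-numbered pairs ran from -0.32 to 0.11, so the pair numbered 4 was hardly set apart. The pairing comes from the data and the numbers in the labels, so a fit with the replicate number as a block was an alternative. No pair of libraries was alike within sampling noise, with a lowest chi-square per degree of freedom of 5.55 on recovered reads.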

Additional observations from a re-analysis of the deposited data

Results flagged for a closer look

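Of 82 groups of 4 libraries checked, 5 held 1 library far from the other 3, and chance gives about 1 in 20 groups. Nrp2 was at 12.1 TPM in Opa1-/- library 4, below the other Opa1-/- libraries. Sema3a was at 23.6 TPM in the same library, also below the others. Epha7 was at 10.0 TPM in Opa1-/- library 3, above its group. Sema4g was at 2.21 TPM in Opa1-/- library 2, below its group. Sema4d was at 2.46 TPM in Opa1-/- + OPA1 library 3, below its group. The calls of Nrp2, Sema3a, Epha7 and Sema4g were kept without each of these libraries, and Sema4d was not called with or without it.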

How the results depend on the processing

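The counts of changed guidance genes stayed within 12 to 18 higher and 10 to 13 lower under the 22 alternatives, against 14 and 12, and each was within 1.5 times its reported value. The members tested numbered 62 in fits with no filter and 44 with the 0.5 TPM filter, against 41. The count of 18 came from limma-voom with no filter. On TPM as deposited, with no scaling, 1529 of all genes were lower, against 2392. With 1 library left out in turn, genes of the pathway lists that were higher numbered 7 to 13, against 8. Of all genes, 1732 to 2640 were then higher, against 2322. The replicate block ended the call of Plxnb1 (0.21, adjusted p = 0.0502), added one for Efna1 (0.15, adjusted p = 0.0442) and changed no other call of a guidance gene. Of the 26 calls, 20 were kept under every alternative. With chromosome medians removed, 3 differences turned sign, to 0.0312 for Plxna3, -0.0314 for Ephb4 and -0.00293 for Efnb3. With length and GC trends removed, Ephb4 was at -0.0252 and Efnb3 at -0.0339, with or without the block. With upper-quartile scaling Efna2 was at 0.0271 and Sema3f at 0.0302, and with limma-voom on recovered reads they were at 0.0058 and 0.00219. With no filter, limma-voom put Ephb4 at -0.00042. With both libraries numbered 3 left out, Ephb4 was at -0.0346, Efna2 at 0.0492 and Sema4d at -0.0690. With 1 library left out, Ephb4 ranged from -0.0365 to 0.167, Efna2 from -0.0812 to 0.0431, Sema3f from -0.0489 to 0.0350, Efnb3 from -0.0780 to 0.163 and Sema4d from -0.0224 to 0.0710. None of these last 5 genes was called with all libraries, and the cause of the turns was not tested.

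Of the 22 members below the filter, several rest on a few reads per library, and what size of difference could be found there was not tested. Recovered reads depend on the annotation used. A gene total does not say which isoform moved.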
